A study of Homo sapiens with 42 samples.

Results

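Of the integrated stress response, 10 genes were described: ATF4, ATF3, ATF5, DDIT3, DDIT4, TRIB3, CHAC1, SESN2, ASNS and PPP1R15A. They are 10 of the 57353 gene names in the count table and were found by name, each in 1 row. Upon FLT3 inhibition in plain medium the input RNA of TRIB3 fell and that of PPP1R15A rose, CHAC1, already low under vehicle, held 3 to 19 counts per library, and the level of the ATF4 message itself did not pass the test. Conditioned medium of stromal cells raised DDIT4. The share of ATF4 RNA found on heavy polysomes was below its share of input RNA in 19 of 21 cultures, whereas DDIT4, TRIB3, SESN2, ATF3 and PPP1R15A were above it in all 21. These shares rest on the scaling of the libraries, and ATF3 and PPP1R15A came as low as 0.03 (log2) above input. The share of all genes called higher in polysomes is given with the calls below.

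The integrated stress response is the arm of translational control in which stress-activated kinases phosphorylate the initiation factor eIF2. Initiation then falls for most messages, while the ATF4 message, whose leader carries upstream reading frames that normally keep ribosomes from the main start, is translated more. ATF4 is a transcription factor that turns on amino acid transporters, amino acid synthesis enzymes and further stress regulators, so its activity is set largely by translation rather than by the level of its RNA.

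MOLM-13 cells, an established line of acute myeloid leukemia (AML) with an internal tandem duplication in the receptor kinase FLT3, were labelled wild type in all groups and therefore differed in medium and drug. In RPMI the 3 conditions were vehicle (DMSO), 3 nM quizartinib (AC220, an FLT3 inhibitor) and quizartinib with 10 nM everolimus (an inhibitor of mTOR complex 1), here called combo. In medium conditioned by the HS-5 bone marrow stromal line (hBMSC-CM) the 4 conditions were vehicle, quizartinib, everolimus and combo. Treatment lasted 12 h. Each condition had 3 replicates, and from each culture both input RNA and RNA enriched in heavy polysomes, the messages loaded with many ribosomes, were sequenced, giving 42 libraries. RPMI with everolimus as the sole drug was not analysed here. The model is 1 cell line, and the stromal cells acted only through their medium.

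The 42 libraries held 19.4 to 38.8 M counts (median 30.2 M), and 12939 genes passed the filter on low values. Of 10 myeloid leukemia markers 9 reached a mean of 1 CPM (counts scaled to the size of the library), CD68 being the exception, and their summed level was 1323 to 2826 CPM. Of 12 stromal markers 0 reached 1 CPM, with a summed level of 0.115 to 3.82 CPM. T cell markers (0 of 3 at 1 CPM, summed 0 to 2.73 CPM) and erythroid markers (0 of 3, 0 to 0.171 CPM) were likewise at or near 0, and of 3 B cell markers CD79A alone reached 1 CPM (summed 0.534 to 7.06 CPM). Mitochondrial genes took 7.05% to 10.2% of the counts in the 6 replicate 1 inputs outside hBMSC-CM everolimus and 3.17% to 5.35% in the 12 inputs of the other numbers there, and the part of this difference in the results was not tested. Libraries with the same replicate number deviated together in every condition apart from hBMSC-CM everolimus, so a second fit with a term for the number within each fraction, on the 36 other libraries, is given as the paired fit where it changes a call.

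Upstream reading frames were counted in the leaders of the MANE transcripts on GRCh38, because they are the feature for which several of these messages are known. ATF4 (chr22:39519695-39522683, plus strand) has a leader of 282 bases with 3 upstream ATG codons. The first 2 open frames that close within 6 and 12 bases, and the third opens a frame of 59 codons that runs past the main start. ATF5 (chr19:49928702-49933935, plus strand), a transcription factor of the same family, has a leader of 315 bases with 1 closed frame of 12 bases and 1 overlapping frame of 59 codons. DDIT3 (chr12:57516588-57521737, minus strand), which encodes the pro-apoptotic factor CHOP, has a leader of 177 bases with 2 closed frames that share a stop and 1 overlapping frame of 73 codons. The short frames are shown whole, and each start is shown with 9 bases before and 3 after it, since these bases around a start influence its use. Capitals mark the ATG.
ATF4 first closed frame: ATGtag
ATF4 second closed frame: ATGgcgtattag
ATF5 closed frame: ATGgctctgtag
ATF4 overlapping frame start: gcttaagccATGgcg
ATF4 main start: caccgcaacATGacc
ATF5 overlapping frame start: gctgcagccATGgag
ATF5 main start: gctacagccATGtca
DDIT3 overlapping frame start: tgaaagcagATGtgc
DDIT3 main start: actgcagagATGgca

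In ATF4 and ATF5 both the overlapping and the main start have a purine 3 bases before the ATG, and the overlapping start alone has a G directly after it. In DDIT3 the main start has both features and the overlapping start has neither. PPP1R15A (leader of 240 bases), TRIB3 (410 bases) and SESN2 (330 bases) have 2, 2 and 1 upstream frames, all closed before the main start. The leaders of ATF3, DDIT4, CHAC1 and ASNS hold 0 upstream ATG codons. Thus 6 of the 10 genes carry an upstream ATG and 3 an overlapping frame, against 39.4% and 12.1% of the 10742 tested genes with a leader.

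**Figure D1:**
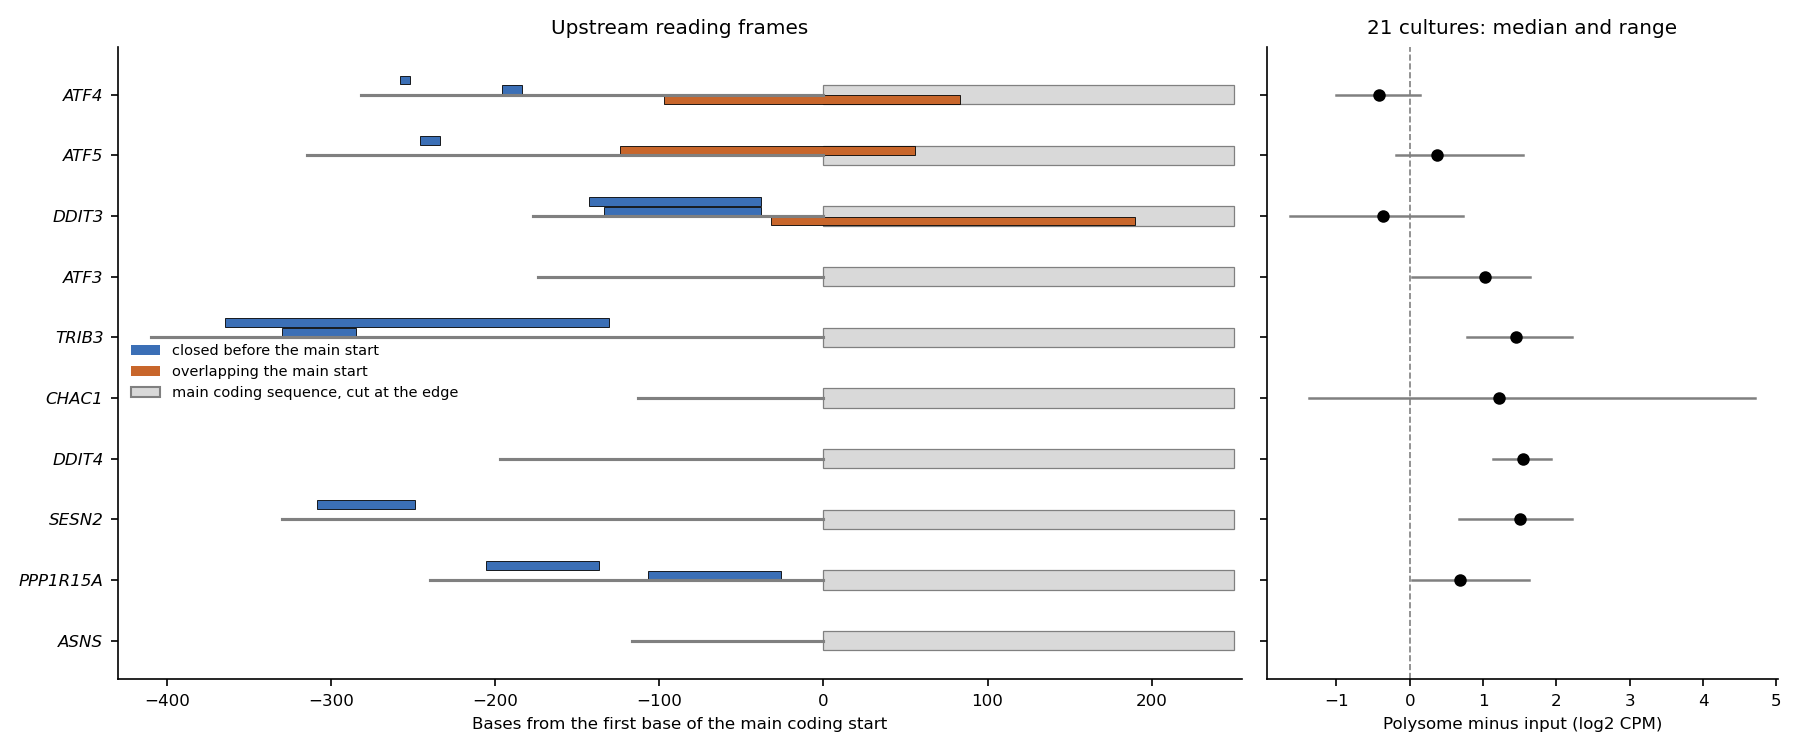
Left, leader of each of the 10 genes (grey line, in bases from the main start) with upstream frames that close before it (blue) or overlap it (orange). Right, median and range over 21 cultures of polysome minus input (log2 CPM), which lies mostly below 0 for ATF4 and DDIT3 and above 0 for DDIT4, TRIB3 and SESN2. ASNS was below the filter and has no value.

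Promoters were searched for TGATGNAA (either strand; TTNCATCA on the other), a form of the element bound by ATF4 with CEBP partners, in the 250 bases before and 50 after each RefSeq start on GRCh38.p14. ATF3, CHAC1 and ASNS held a match, 3 of the 10 genes, against 4.46% of 27305 genes with such a window and 2.46% of the 8943 tested ones. Each match is shown in capitals in a window of 30 bases.
ATF3 (chr1:212565205-212565234, plus strand): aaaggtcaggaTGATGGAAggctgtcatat
CHAC1 (chr15:40953251-40953280, plus strand): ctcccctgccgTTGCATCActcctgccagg
ASNS (chr7:97872458-97872487, minus strand): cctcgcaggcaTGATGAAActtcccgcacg
A match is a description of letters and not evidence of binding.

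CPM values were scaled by edgeR's TMM factors, so a level is relative to the other RNA of a library, and in bulk RNA fewer cells with a message and less of it per cell cannot be told apart. Per kilobase of transcript, mean input levels were 301 CPM for ATF4, 63.3 for DDIT4, 50.8 for PPP1R15A, 25.6 for ATF5, 13 for DDIT3, 7.95 for TRIB3, 7.64 for SESN2, 2.19 for ATF3, 1.11 for CHAC1 and 0.0999 for ASNS. The level of ATF4 varied least over conditions, with a ratio of 1.51 between the highest and lowest condition mean, and that of CHAC1 most, with a ratio of 28.8 (ASNS, below the filter, left aside). ASNS, which encodes asparagine synthetase and is a classical ATF4 target, held 0 to 25 counts per library, with 5 of 21 input libraries at 0, and was not tested. Its exons are shared on the same strand with the long noncoding gene ENSG00000284707, which held 0 to 38 counts. How reads in both genes were assigned is not given in the sources used here, so the counts do not give the abundance of ASNS RNA.

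**Figure D2:**
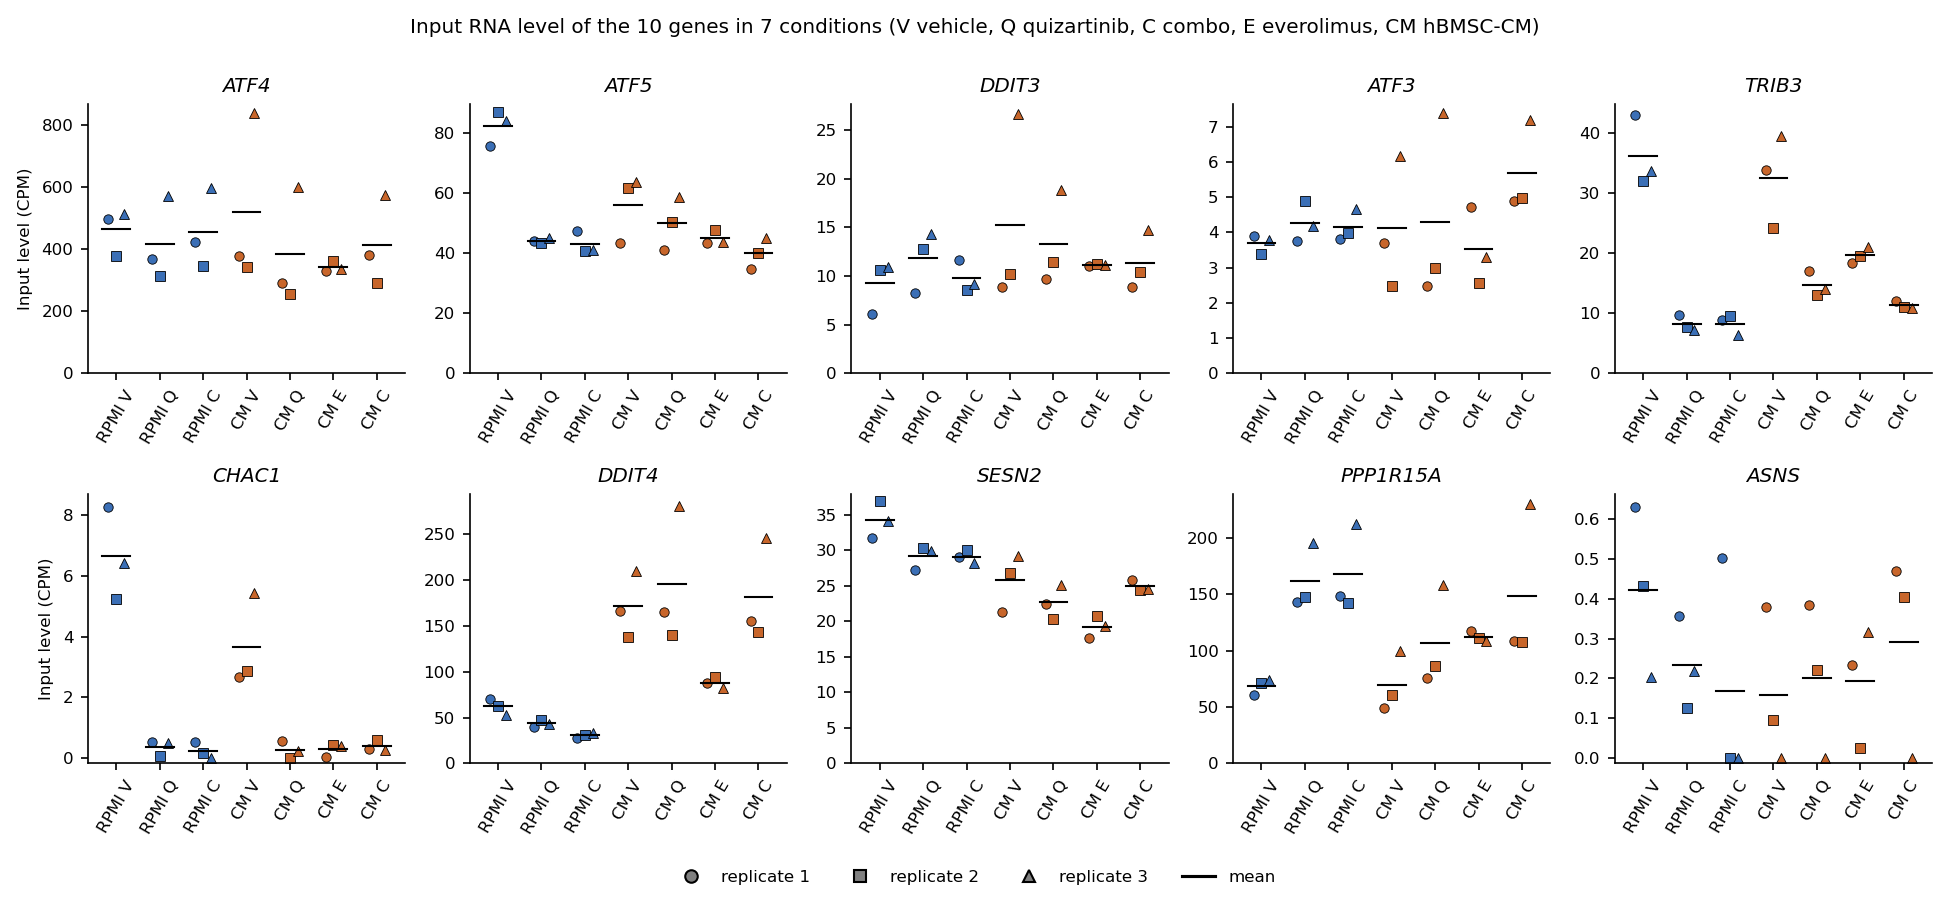
Input RNA level (CPM, linear axes that differ between genes) of the 10 genes in each culture, with replicates 1, 2 and 3 as circles, squares and triangles and lines at the means. TRIB3 and CHAC1 are highest under vehicle in both media, DDIT4 is higher in hBMSC-CM than in RPMI, and replicate 3 is the highest ATF4 value in 6 of 7 conditions.

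The first question was what FLT3 inhibition did to these messages in plain medium. TRIB3, a pseudokinase induced by ATF4 and DDIT3 that restrains AKT and ATF4 itself, was at 43.0, 32.1 and 33.7 CPM in the 3 RPMI vehicle inputs and at 9.74, 7.77 and 7.20 CPM under quizartinib. All 3 treated values lay far below all vehicle values, and the change of -2.14 ± 0.28 (log2, SE) passed the test (edgeR, adjusted p = 2.07e-07). CHAC1, which encodes an enzyme that degrades glutathione and is a late target of the ATF4, ATF3 and DDIT3 cascade, was at 8.28, 5.26 and 6.43 CPM under vehicle and at 0.521, 0.0759 and 0.491 CPM under quizartinib. These treated levels rest on 19, 3 and 18 counts, against 183 to 328 counts under vehicle, and the groups did not overlap. CHAC1 passed the filter on low values only through the vehicle libraries, so its levels are a description with no test, and counts of called genes are given over the 8 other tested genes.

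PPP1R15A, also called GADD34, the stress-induced partner of the phosphatase that removes the phosphate from eIF2, went the other way. Its input level was 60.6, 71.4 and 73.6 CPM under vehicle and 143, 147 and 196 CPM under quizartinib, without overlap (1.24 ± 0.33 log2, adjusted p = 0.00311). Thus 2 of the 8 genes were called, 1 higher and 1 lower, where 34.6% of all tested genes were called (16.6% higher and 18% lower). Replicate values did not overlap for 5 of the 8 genes and for 55.7% of all genes.

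ATF5 was at 75.6, 86.9 and 83.9 CPM under vehicle and at 44, 43.3 and 45.1 CPM under quizartinib. The groups did not overlap, but the change of -0.90 did not pass in the fit over all libraries (adjusted p = 0.0805); the paired fit called it (-0.81, adjusted p = 5.13e-05), where that fit called 54.6% of all genes. DDIT4, which encodes REDD1, a stress-induced inhibitor of mTOR complex 1, was at 70.7, 62.2 and 53.2 CPM under vehicle and at 40.2, 47.4 and 43.4 CPM under quizartinib. These groups did not overlap either, and the change of -0.51 did not pass (adjusted p = 0.10). It was called in 2 of 16 alternatives, with only the groups compared (-0.55, adjusted p = 0.012) and with a replicate block within each fraction on all libraries (-0.52, adjusted p = 0.0455). ATF4 was at 497, 379 and 513 CPM under vehicle and at 368, 314 and 569 CPM under quizartinib. These ranges overlapped, and the difference of -0.15 ± 0.31 was within the spread between replicates (adjusted p = 0.747).

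DDIT3 was at 6.14, 10.6 and 11 CPM under vehicle and at 8.25, 12.8 and 14.4 CPM under quizartinib, which also overlapped (0.36, adjusted p = 0.510). ATF3, a stress-induced transcription factor downstream of ATF4, lay between 2.47 and 7.40 CPM over all 21 inputs, with a median of 3.89 CPM. SESN2, a sestrin that senses leucine and restrains mTOR complex 1, lay between 17.7 and 36.9 CPM with a median of 26.8 CPM. Neither ATF3 nor SESN2 was called in any input comparison of the fit over all libraries.

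Adding everolimus to quizartinib in RPMI is set against the same 3 vehicle cultures as quizartinib alone. TRIB3 was at 8.89, 9.64 and 6.36 CPM (-2.13 against vehicle, adjusted p = 1.99e-07). CHAC1 was at 0.534, 0.160 and 0 CPM, or 17, 6 and 0 counts, all below the vehicle libraries. PPP1R15A was at 149, 143 and 212 CPM (1.29, adjusted p = 0.00201).

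DDIT4 passed the test in this comparison, at 28.2, 31.0 and 33.3 CPM, below all vehicle and all quizartinib values (-1.01 ± 0.24 against vehicle, adjusted p = 0.00112). In all, 3 of the 8 genes were called against vehicle, 1 higher and 2 lower, where 37.4% of all genes were (17.7% higher and 19.7% lower), and 5 of 8 did not overlap, against 57.4% of all genes. ATF5 was at 47.5, 40.8 and 40.9 CPM (-0.93, adjusted p = 0.0651), a fall that the paired fit called (-0.83, adjusted p = 3.67e-05; 57.1% of all genes were called). Set directly against quizartinib, combo changed 0 of the 8 genes by edgeR, where 0.00773% of all genes were called. DDIT4 was the 1 gene without overlap there (-0.50, adjusted p = 1.00; 7.57% of all genes did not overlap). At an unadjusted p under 0.05 the comparison held 1 of the 8 genes, and the paired fit also called 0.

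In hBMSC-CM quizartinib lowered TRIB3. It was at 33.9, 24.3 and 39.5 CPM under vehicle and at 17, 13 and 14 CPM under quizartinib, without overlap (-1.15 ± 0.27, adjusted p = 0.00474). CHAC1 was at 2.68, 2.87 and 5.44 CPM under vehicle and at 0.578, 0 and 0.221 CPM under quizartinib, the latter from 18, 0 and 5 counts. TRIB3 was the 1 of 8 genes called, where 12.3% of all genes were called (5.46% higher and 6.84% lower), and also the 1 of 8 without overlap (34.1% of all genes).

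PPP1R15A was at 49.3, 60.7 and 99.6 CPM under vehicle and at 75.6, 86.5 and 158 CPM under quizartinib. The groups overlapped because replicate 3 was the highest in both, and the rise of 0.61 was not called (adjusted p = 0.231), whereas the paired fit called it (0.63, adjusted p = 0.00315; 34.9% of all genes were called). ATF4 had the same layout, at 378, 342 and 837 CPM under vehicle and 292, 256 and 600 CPM under quizartinib. Each treated culture was below the vehicle culture of its number, by 0.37, 0.42 and 0.48 on the log2 scale. The paired fit called a fall (-0.39, adjusted p = 0.0273) that the fit over all libraries did not (-0.44, adjusted p = 0.392).

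The difference between the media in the response to quizartinib was tested directly. In the fit over all libraries 0 of the 8 genes passed, where edgeR called 1.96% of all genes (1.79% with a positive and 0.178% with a negative difference); 2 of the 8 had an unadjusted p under 0.05. TRIB3 differed by 0.99 (adjusted p = 0.271) and ATF5 by 0.73 (adjusted p = 0.810). The paired fit called both, TRIB3 by 0.94 (adjusted p = 0.0202) and ATF5 by 0.68 (adjusted p = 0.0476), where it called 9.83% of all genes. In that fit TRIB3 and ATF5 thus fell less in hBMSC-CM than in RPMI. The difference of -0.63 for PPP1R15A was not called (adjusted p = 0.786).

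Combo in hBMSC-CM gave 12.0, 11.1 and 10.9 CPM for TRIB3 (-1.52 ± 0.28 against vehicle, adjusted p = 7.20e-05). CHAC1 was at 0.294, 0.605 and 0.260 CPM, from 10, 24 and 9 counts. PPP1R15A was at 108, 108 and 230 CPM, all above the vehicle values (1.09, adjusted p = 0.0119). Of the 8 genes 2 were called, 1 higher and 1 lower, where 26.5% of all genes were (11.4% higher and 15.1% lower). The 2 called genes were also the 2 of 8 without overlap, against 43.5% of all genes. The PPP1R15A call was lost without vehicle replicate 1 (0.89, adjusted p = 0.0704), vehicle replicate 2 (1.00, adjusted p = 0.0518) or combo replicate 3 (0.63, adjusted p = 0.185). Its same-numbered cultures differed by 1.13, 0.83 and 1.21, and the paired fit called it as well (1.13, adjusted p = 1.05e-06). ATF5 was at 34.8, 40.2 and 45.1 CPM against 43.3, 61.5 and 63.5 CPM under vehicle, a fall in the paired fit alone (-0.42, adjusted p = 0.0272; 48.4% of all genes were called). Against quizartinib in the same medium 0 of the 8 genes were called by edgeR in either fit and 0 had an unadjusted p under 0.05, where 0.240% of all genes were called.

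Everolimus alone was applied in hBMSC-CM, where 0.410% of all genes were called in the input (0.224% higher and 0.185% lower). CHAC1 was at 0.0261, 0.427 and 0.412 CPM, from 1, 16 and 13 counts, below the 90 to 207 counts of vehicle. Of the 8 other genes 0 were called by edgeR, and 3 had an unadjusted p under 0.05. DDIT4 was at 87.1, 94.0 and 82.2 CPM under everolimus against 166, 138 and 209 CPM under vehicle, without overlap, and did not pass (-0.96 ± 0.24, adjusted p = 0.0611). It passed in 7 of 15 alternatives. Among them were voom (adjusted p = 0.0411), DESeq2 (0.0154), the replicate block (0.0201), the replicate block within each fraction (0.00647) and leaving out vehicle replicate 2 (0.0469). The block fits carry little weight here, because the replicate numbers of the everolimus libraries did not pair with the others.

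TRIB3 under everolimus was at 18.4, 19.5 and 21 CPM, below all vehicle values (-0.73, adjusted p = 0.325). PPP1R15A was at 117, 111 and 108 CPM, above all vehicle values (0.68, adjusted p = 0.554). Both were called with the block within each fraction alone (-0.72, adjusted p = 0.0482, and 0.77, adjusted p = 0.0165), in a group whose replicate numbers did not pair with the others. In all 4 of the 8 genes did not overlap, against 27.7% of all genes.

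The effect of the medium itself was clearest for DDIT4. Its input level was 53.2 to 70.7 CPM in RPMI vehicle and 138 to 209 CPM in hBMSC-CM vehicle (1.46 ± 0.24 log2, adjusted p = 2.51e-04). Under quizartinib it was 40.2 to 47.4 CPM in RPMI and 165, 140 and 281 CPM in hBMSC-CM (2.16 ± 0.25, adjusted p = 9.42e-08). The media did not overlap in either case, nor did they for ATF5 and SESN2 under vehicle and for SESN2 and TRIB3 under quizartinib, where 16.1% and 29.8% of all genes did not overlap. DDIT4 was the 1 of 8 genes called in both comparisons, where 1.51% (1.3% higher and 0.209% lower) and 8.16% (6.11% higher and 2.05% lower) of all genes were called, and these comparisons share no libraries.

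The paired fit added calls to both. Under vehicle it called ATF5 (-0.57, adjusted p = 0.0199) and SESN2 (-0.43, adjusted p = 0.0403) lower in hBMSC-CM, so 3 of 8 genes, where it called 7.03% of all genes. Under quizartinib it called TRIB3 higher (0.78, adjusted p = 0.00304) and SESN2 (-0.42, adjusted p = 0.0172) and PPP1R15A (-0.72, adjusted p = 0.00122) lower, so 4 of 8, where it called 23.1% of all genes. In the fit over all libraries TRIB3 was at 0.83 (adjusted p = 0.0528) in this comparison.

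**Figure D3:**
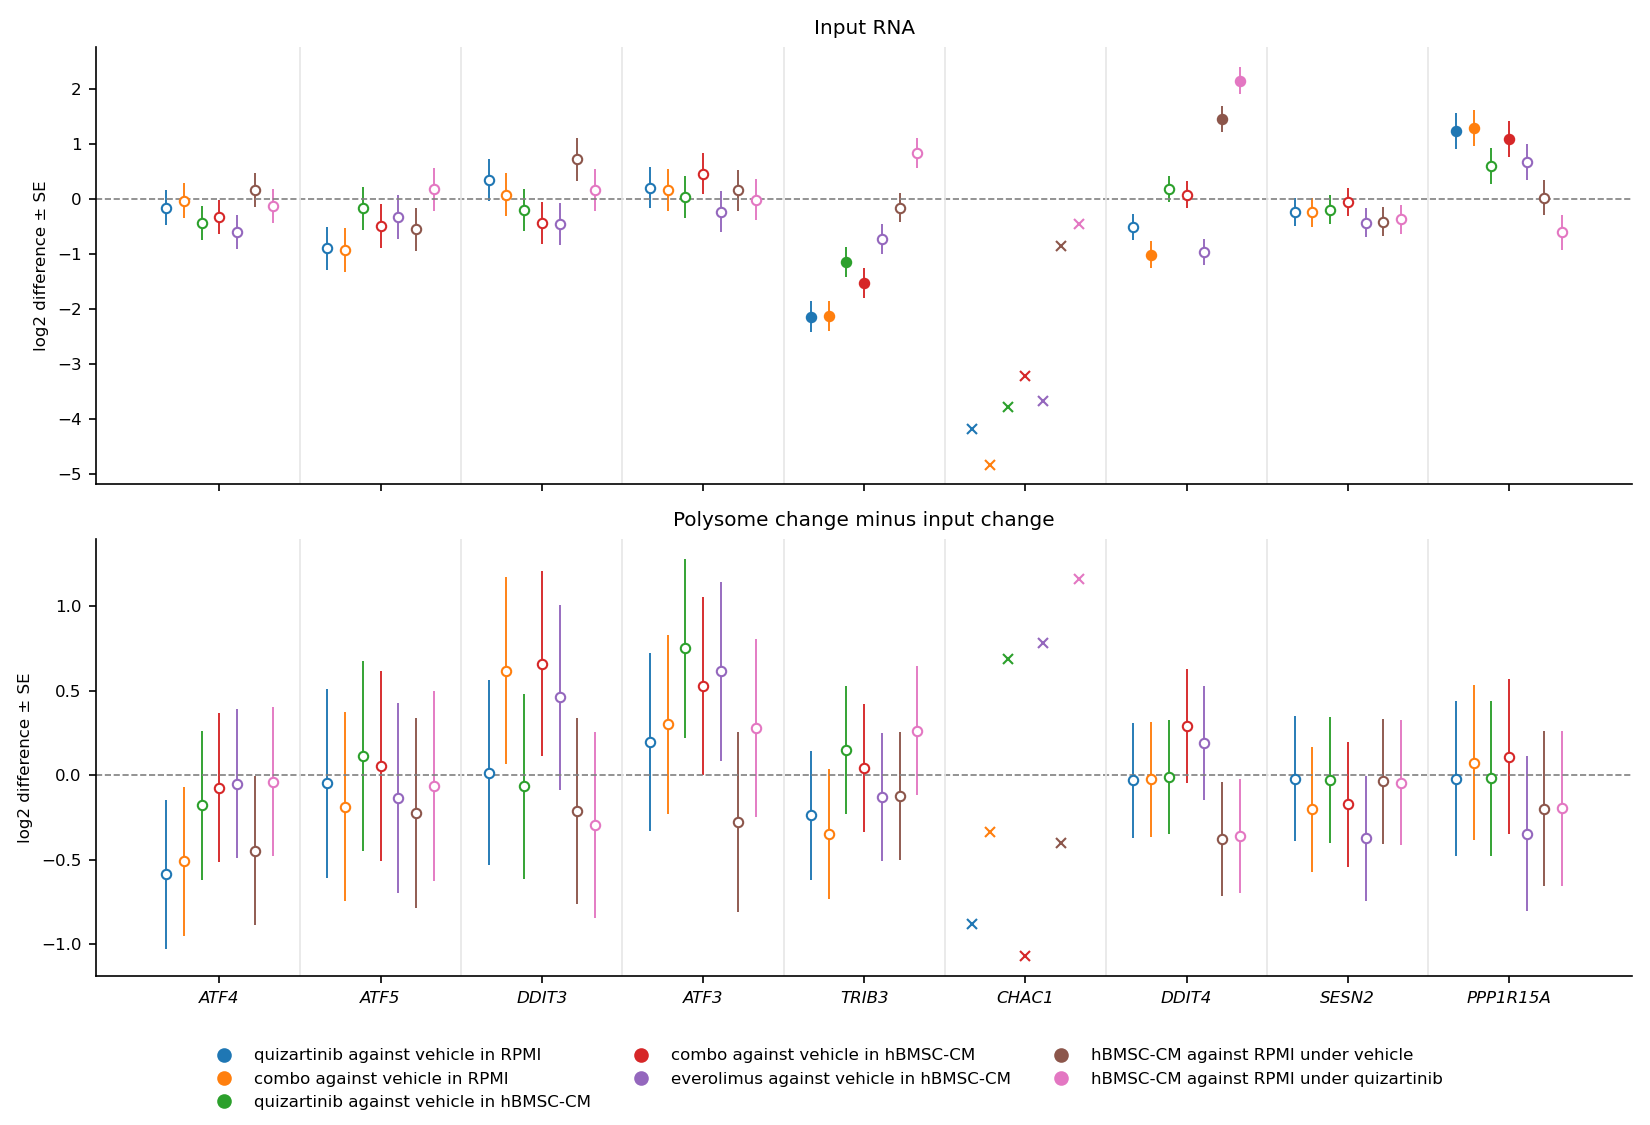
Log2 difference with its SE for the 9 tested genes in 7 comparisons, in input RNA (upper) and as polysome change minus input change (lower), with filled points for an adjusted p under 0.05 in the fit over all 42 libraries. CHAC1 is drawn as crosses without SE or test. Filled points stand in the upper panel for TRIB3, DDIT4 and PPP1R15A, and the lower panel has none.

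For the polysome libraries the quantity described is polysome minus input, the log2 CPM of a message in heavy polysomes minus that in the input of the same culture. It is a share relative to other messages and not a rate of translation. ATF4 was at 0.14, -0.09 and -0.22 in RPMI vehicle, the highest of the conditions by mean. Under quizartinib it was at -0.44, -0.38 and -0.95 and under combo at -0.40, -0.38 and -0.81, so every treated culture was below every vehicle culture. In hBMSC-CM the values were 0.14, -0.54 and -0.88 under vehicle, -0.32, -0.45 and -1.01 under quizartinib, -0.63, -0.64 and -0.38 under everolimus and -0.42, -0.37 and -0.80 under combo, and these groups overlapped.

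The fall of ATF4 on polysomes relative to input in RPMI was -0.59 ± 0.44 upon quizartinib (adjusted p = 0.580) and -0.51 upon combo (adjusted p = 0.611) in the fit over all libraries, which called neither. It was seen in 3 of 3 replicate numbers, by 0.58, 0.29 and 0.73 upon quizartinib and by 0.54, 0.29 and 0.58 upon combo. The paired fit called both (-0.70, adjusted p = 0.0154, and -0.65, adjusted p = 0.0178), where it called 14% and 20.4% of all genes. Over all alternatives the adjusted p ran from 0.0154 to 1.00 and from 0.0178 to 0.848. Both comparisons share the 3 vehicle cultures. In hBMSC-CM the changes were -0.18 upon quizartinib and -0.07 upon combo (adjusted p = 1.00 for both).

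In the fit over all libraries 0 of the 8 genes changed in polysome minus input in any of the 10 comparisons, by edgeR, and 0 had an unadjusted p under 0.05. The share of all genes called was 1.55% upon quizartinib (1.28% lower) and 4.99% upon combo in RPMI (2.48% higher and 2.51% lower), 0% and 0.0232% in hBMSC-CM, and 0% in the 6 other comparisons. ATF4 was the 1 gene without overlap in both RPMI comparisons, where 19.8% and 24.6% of all genes did not overlap. Upon quizartinib in hBMSC-CM ATF3 was the 1 gene without overlap (0.75, adjusted p = 1.00), against 5.36% of all genes. The median of all genes in these comparisons was 0.15 with TMM factors, 0.01 and -0.02 with RLE factors and 0.38 and 0.43 by library size alone; ATF4 was below 0 under each. Of the other genes with upstream frames, ATF5 changed by -0.05, DDIT3 by 0.01 and PPP1R15A by -0.02 upon quizartinib in RPMI, none of which passed.

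**Figure D4:**
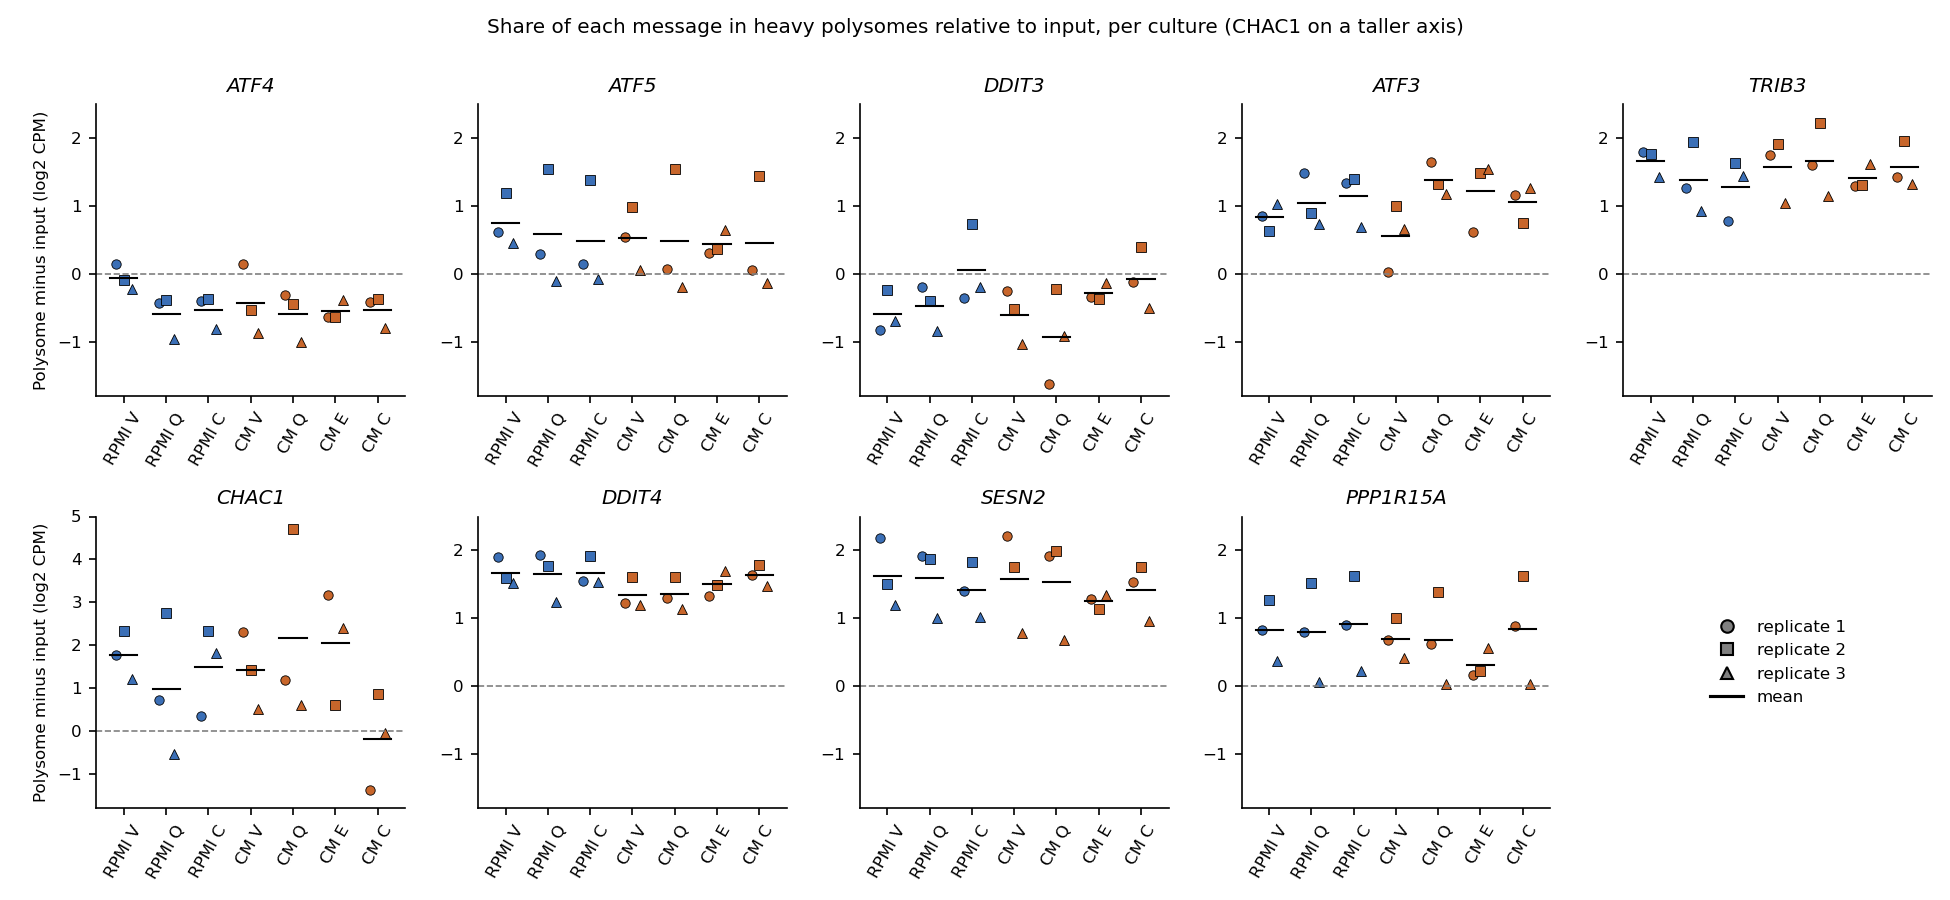
Polysome minus input (log2 CPM) in each culture for the 9 tested genes, with replicates 1, 2 and 3 as circles, squares and triangles, lines at the means and a taller axis for CHAC1. ATF4 lies above 0 in 2 of 21 cultures, and replicate 2 is the highest ATF5 and PPP1R15A value in 6 of 7 conditions.

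The level of polysome minus input differed between the genes. DDIT4 lay between 1.14 and 1.93 over the 21 cultures, TRIB3 between 0.78 and 2.21 and SESN2 between 0.68 and 2.21, so all 3 were above 0 throughout. Each was called higher in polysomes than in input in all 7 conditions, with fitted differences of 1.31 to 1.70 for DDIT4, 1.33 to 1.70 for TRIB3 and 1.26 to 1.67 for SESN2, and with any culture left out. TRIB3 and SESN2 hold closed upstream frames and DDIT4 holds none.

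ATF3 (0.03 to 1.64) and PPP1R15A (0.03 to 1.63) were above 0 in 21 of 21 cultures as well, with TMM factors. ATF3 was called in 6 of 7 conditions, the exception being hBMSC-CM vehicle (0.58, adjusted p = 0.173). PPP1R15A was called in 4, all 3 in RPMI and hBMSC-CM combo. CHAC1 ranged from -1.37 to 4.70 on few counts. Leaving out single cultures ended the ATF3 call in 5 of its 6 conditions (hBMSC-CM quizartinib excepted; adjusted p = 0.0557 to 0.165) and the PPP1R15A call in all 4 without replicate 1 or 2 (0.0502 to 0.449).

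The calls were 5 of the 8 genes in each RPMI condition, 3 in hBMSC-CM vehicle, 4 in hBMSC-CM quizartinib, 4 in hBMSC-CM everolimus and 5 in hBMSC-CM combo, all higher in polysomes. For polysome against input the paired fit gives the difference fitted for replicate number 1, not a mean over the 3 replicates. For that number hBMSC-CM vehicle had 5, with ATF3 (0.80, adjusted p = 0.0466) and PPP1R15A (0.86, adjusted p = 2.11e-04) added. The paired fit called 72.3% of all genes there in either direction. In hBMSC-CM quizartinib it added PPP1R15A as higher (0.69, adjusted p = 0.00207), where it called 69.1% of all genes. Of all genes 31.5%, 31.2%, 31.7% and 29.6% were called higher in RPMI vehicle, quizartinib and combo and hBMSC-CM vehicle, and 29.7%, 27.9% and 32.9% in hBMSC-CM quizartinib, everolimus and combo. The 3 genes with an overlapping frame were not among those called. ATF4 lay between -1.01 and 0.14, with fitted differences of -0.05 to -0.67. For replicate number 1 the paired fit called ATF4 lower in RPMI quizartinib (-0.43, adjusted p = 0.0196) and RPMI combo (-0.38, adjusted p = 0.0380). It called 69.8% and 70% of all genes there, and the fit over all libraries did not call ATF4. In RPMI vehicle its sign depended on the scaling, at -0.05 with TMM and 0.10 with RLE factors, and by library size alone the signs of CHAC1 in hBMSC-CM combo, DDIT3 in RPMI combo and PPP1R15A in hBMSC-CM everolimus turned.

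DDIT3 lay between -1.63 and 0.73 and was below 0 in 19 of 21 cultures, with fitted differences of -0.81 to 0.09. For replicate number 1 the paired fit called DDIT3 lower in hBMSC-CM quizartinib (-0.94, adjusted p = 0.0174). ATF5 went the other way, above 0 in 17 of 21 cultures with fitted differences of 0.44 to 0.80. For replicate number 1 the paired fit called ATF5 higher in RPMI vehicle (0.61, adjusted p = 0.00315), where it called 72.4% of all genes. Its replicate 2 cultures were at 0.99 to 1.54 in the 6 conditions other than everolimus, and the cultures of the other numbers there were at -0.19 to 0.62.

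Among all genes the median of polysome against input in RPMI vehicle was 0.25 for the 6514 without an upstream ATG, -0.44 for the 4228 with one and -0.46 for the 1299 with an overlapping frame. Across the 7 conditions these medians ran from 0.25 to 0.42, from -0.44 to -0.10 and from -0.48 to -0.19. ATF4 was at -0.05 in RPMI vehicle and DDIT3 at 0.09 in RPMI combo, the highest fitted difference of each, and that of ATF5 was above 0 in all 7 conditions. Outside RPMI vehicle ATF4 was below the median of genes with an overlapping frame, at -0.63 against -0.21 in RPMI quizartinib. In hBMSC-CM vehicle it was nearly equal to that median (-0.49 against -0.48), and ATF4 ran from -0.97 to -0.06 there over the alternatives. In hBMSC-CM quizartinib ATF4 was at -0.67 and DDIT3 at -0.81, against -0.32. DDIT3 was also below that median in hBMSC-CM vehicle (-0.74 against -0.48) and RPMI vehicle (-0.53 against -0.46). By the mean over its cultures it was below it in RPMI quizartinib too (-0.48 against -0.21). It was above that median in hBMSC-CM everolimus (-0.28 against -0.31) and under combo in both media. TRIB3, SESN2 and PPP1R15A were above the median of genes with an upstream ATG in all 7 conditions.

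The other genes of the pathway were taken from lists. Of 36 tested ATF4 and amino acid response targets, 21 fell upon quizartinib in RPMI and 5 rose, where 18% of all genes fell and 16.6% rose, and their median change was -0.96. SLC7A1, a transporter of cationic amino acids, fell by 4.20 (log2, adjusted p = 1.35e-13), and KLHL24 rose by 1.91 (adjusted p = 3.93e-08). In hBMSC-CM 13 fell and 2 rose (median -0.59), where 6.84% of all genes fell and 5.46% rose. GPT2, an alanine aminotransferase, fell by 1.97 there (adjusted p = 3.25e-06), and the paired fit gave 20 lower and 4 higher, where it called 16.6% of all genes lower and 18.3% higher.

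Upon combo 22 of the 36 targets fell and 4 rose in RPMI, where 19.7% of all genes fell and 17.7% rose, and 15 fell and 4 rose in hBMSC-CM, where 15.1% fell and 11.4% rose. SLC7A5, the large neutral amino acid transporter, fell by 4.52 in RPMI (adjusted p = 1.26e-14), and PYCR1, an enzyme of proline synthesis, fell by 2.87 in hBMSC-CM (adjusted p = 1.42e-09). Everolimus alone lowered 2 and raised 1 of the 36, PSAT1 of serine synthesis by -1.36 (adjusted p = 0.0236) and KLHL24 by 1.44 (adjusted p = 5.73e-04), where 0.185% of all genes fell and 0.224% rose. Under quizartinib 7 of the 36 were higher and 1 lower in hBMSC-CM than in RPMI, where 6.11% of all genes were higher and 2.05% lower, with SLC7A1 at 2.65 (adjusted p = 3.73e-09). The paired fit gave 12 and 3, where it called 11.7% and 11.4% of all genes. In polysome minus input 1 of the 36 rose upon quizartinib and 2 upon combo in RPMI, where 0.278% and 2.48% of all genes rose, and 0 were called in the 8 other comparisons. The paired fit gave 2 higher and 1 lower, where it called 4.87% and 9.1% of all genes, and 4 higher and 1 lower, where it called 8.76% and 11.7%.

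A list of 17 genes held eIF2, its kinases and their regulators, its exchange factor eIF2B and phosphatase partners. Of these, 6 fell and 0 rose upon quizartinib in RPMI, where 18% of all genes fell and 16.6% rose. In hBMSC-CM 2 fell and 0 rose, where 6.84% of all genes fell and 5.46% rose. The paired fit had 4 falls there, where it called 16.6% of all genes lower. EIF2B3, a subunit of eIF2B, fell by 1.85 in RPMI (adjusted p = 2.86e-07) and by 0.97 in hBMSC-CM (adjusted p = 0.00704).

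Of 10 genes of the unfolded protein response outside ATF4, 5 fell and 1 rose upon quizartinib in RPMI, where 18% and 16.6% of all genes did, with XBP1 at -2.65 (adjusted p = 5.92e-06). In hBMSC-CM 1 of the 10 fell, where 6.84% of all genes fell, and 5 fell in the paired fit, where 16.6% did. In polysome minus input HSPA5, the chaperone BiP, rose upon combo in RPMI (1.51, adjusted p = 0.0194) as 1 of these 10, where 2.48% of all genes rose. The paired fit called 4 of the 10 higher upon quizartinib and 5 upon combo, where it called 4.87% and 8.76% of all genes higher.

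Among 13 other messages known for upstream frames, SLC7A1, EPRS and CEBPB were also on the list of targets and PPP1R15B on that of eIF2. Of the 13, 2 fell upon quizartinib in RPMI, where 18% of all genes fell. In hBMSC-CM 1 fell and 1 rose, where 6.84% and 5.46% of all genes did. In the paired fit 6 fell in RPMI and 5 in hBMSC-CM, where it called 23.7% and 16.6% of all genes lower. In polysome minus input 0 of these 13 were called in all 10 comparisons by edgeR, and the paired fit called 2 lower upon quizartinib in RPMI, where it called 9.1% of all genes lower.

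The 9 genes did not vary as 1 group. Over the 21 input libraries Pearson's r of log2 CPM was 0.79 between TRIB3 and CHAC1, 0.69 between TRIB3 and ATF5 and -0.82 between TRIB3 and PPP1R15A, and 0.13 between ATF4 and TRIB3. These points share conditions and replicate numbers, so r is a description. The genes most like ATF4 in the input were its processed pseudogene ATF4P3 (0.93), RPL24 (0.90), ATP5F1E (0.89), RPL35 (0.89) and NDUFB1 (0.88) among 8425 genes. ATF4P3 was at 6.28 to 41.0 CPM, and reads may be split between it and ATF4. In polysome minus input over 21 cultures STX10 (0.93), RABGGTA (0.91), WASH2P (0.90), CDK10 (0.89) and ZNF511 (0.89) were most like ATF4.

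Exons of ATF5 overlap IL4I1 and NUP62 and those of DDIT3 overlap MARS1 and MBD6 on the opposite strand. Whether the counting used strand is not given in the sources used here, so reads of these pairs may not be told apart.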

How the data were processed

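The deposited table holds raw counts of reads per gene for 42 libraries, made by the authors from poly(A)-selected, paired-end reads aligned with STAR 2.6.0a to hg38; strand use in counting is not given in the sources used here. Of 58884 rows, rows with the same name were summed (57353 names), and 12939 genes with a mean of at least 1 count and 1 CPM were kept (99.8% of counts). ASNS did not pass, and CHAC1 passed only through the vehicle libraries and is described without a test. Groups came from the labels. The labels do not say whether replicates are separate cultures started apart, so p-values measure the spread between these samples.

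Counts were fitted with edgeR 4.0.16 (R 4.3.3) by the robust quasi-likelihood test on 14 group means of all 42 libraries, with TMM factors (0.705 to 1.25) and Benjamini-Hochberg adjustment over 12939 genes; a call is an adjusted p under 0.05. The comparison of polysome change with input change is an interaction term. Log2 CPM used a prior count of 2. On simulated counts with 4-fold changes, 100 of 100 input changes and 98 of 100 interactions were recovered, and 77 and 24 of 100 with 2-fold changes. The simulated spread between replicates was smaller than the common biological coefficient of variation of the data, 0.279. Only genes with at least 100 expected counts were changed, and no effect of the replicate number was simulated. Recovery in these data can therefore be lower.

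Replicate numbers pair the samples outside hBMSC-CM everolimus: same-numbered libraries deviated together in 45 of 45 input pairs (r 0.433 to 0.854) and 45 of 45 polysome pairs (0.242 to 0.879), against 0 of 18 and 3 of 18 pairs over 0.1 with everolimus. The paired fit of 36 libraries was chosen after seeing the data. Its terms for the number cancel in comparisons between conditions but not in polysome against input. There it gives the difference fitted for replicate number 1, not a mean over the 3 replicates. The same holds for the replicate block within each fraction on all libraries.

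Alternatives were RLE factors, library size alone, no filter, a mean of at least 10 CPM, limma 3.58.1 voom, DESeq2 1.42.0, only the groups compared, replicate and culture terms, and leaving out each culture. All 10 genes are named; of the other lists the largest rise and fall among called genes with at least 10 CPM and no overlap, and the 5 genes most like ATF4. The members and lists were chosen with earlier results of these data known. Positions are from GENCODE on GRCh38, another release than the authors' annotation.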

Additional observations from a re-analysis of the deposited data

Results flagged for a closer look

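The response to quizartinib in the input RNA differed between the media for 2 of the 8 genes in the paired fit, by the test of the difference itself. That fit was chosen after seeing the data and called 1272 of all 12939 genes in this comparison. TRIB3 differed by 0.94 (log2, hBMSC-CM minus RPMI, adjusted p = 0.0202) and ATF5 by 0.68 (adjusted p = 0.0476). Neither passed in the fit over all 42 libraries (0.99, adjusted p = 0.271, and 0.73, adjusted p = 0.810), nor with the replicate block within each fraction on those libraries, and each was called in 1 of 22 alternatives. The hBMSC-CM vehicle level of ATF5 (56.1 ± 11.1 CPM, SD, n = 3) was below that in RPMI (82.1 ± 5.85 CPM), and for TRIB3 the vehicle levels were 32.6 ± 7.68 and 36.3 ± 5.92 CPM.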

How the results depend on the processing

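Counts of called genes were recomputed for 27 comparisons, 437 times in all. Of these counts, 392 stayed within 1.5 times and 45 moved, and of 1296 recomputed single-gene values 0 changed sign after a call, 60 lost and 113 gained a call. The input calls of TRIB3 and DDIT4 and of PPP1R15A in RPMI held under each alternative in which the gene was tested. Counts here are over 9 genes and include CHAC1, which is described without a test, so its calls are not results. Over the 8 other genes the main fit called 2 in the input upon quizartinib in RPMI. In hBMSC-CM it called 1 upon quizartinib and 0 upon everolimus. In polysome against input it called 5 in RPMI vehicle. The cause of each shift was not tested.

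In this paragraph the number in parentheses after a count is that of all genes called by the same fit. The fits tested 12939 genes, 8522 at 10 CPM and more without a filter. In the input, quizartinib in RPMI called 3 genes (4477), and 5 with only the groups compared (6017) or with a replicate block within each fraction (6333). In hBMSC-CM it called 2 (1591), and 1 at 10 CPM (1411) and 4 in the paired fit (4517). Everolimus called 1 (53), which was CHAC1, and 0 with RLE factors (48), library size alone (44) or only the groups compared (55). It called 2 without a filter (96), with voom (105), DESeq2 (164) or the replicate block (244), and 4 with the block within each fraction (675). The medium called 1 under vehicle (195), and 3 in the paired fit (910). Under quizartinib it called 1 (1056). There library size alone (1042), 10 CPM (818), DESeq2 (1272), only the groups compared (1096) and the replicate block (1541) gave 2. The block within each fraction gave 3 (2275) and the paired fit 4 (2988). The difference between media gave 0, and 2 in the paired fit, which also gave 1 in place of 0 for polysome minus input upon quizartinib and upon combo in RPMI. For polysome against input, RPMI vehicle gave 6 (8457), and 3 at 10 CPM (6223). ATF3 and CHAC1, among the 6, were below 10 CPM and not tested with that filter. In hBMSC-CM vehicle it gave 3 (8227), and 6 without a filter (8432). It gave 5 by library size alone (8175), at 10 CPM (5908) and with the replicate (8926) or culture block (8469). The paired fit, for replicate number 1, also gave 5 (9352). In hBMSC-CM quizartinib it gave 5 (7589), and 8 without a filter (7502) or with the replicate block (8401). In hBMSC-CM everolimus it gave 5 (7588), and 9 with only the groups compared (10415).

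Leaving out 1 culture gave 3 to 3 called genes in the input upon quizartinib and 4 to 4 upon combo in RPMI, 2 to 2 upon quizartinib, 2 to 3 upon combo and 0 to 1 upon everolimus in hBMSC-CM, 1 to 1 for the medium and 0 to 0 in the other input and all polysome minus input comparisons. For polysome against input it gave 3 to 4, 3 to 5 and 3 to 5 in RPMI vehicle, quizartinib and combo. In hBMSC-CM vehicle, quizartinib, everolimus and combo it gave 3 to 3, 4 to 5, 3 to 4 and 3 to 4. How many of all genes these fits called is not listed here. By library size alone the median of all genes in polysome against input shifted by 0.28 to 0.55 (log2), and calls of ATF3 and PPP1R15A were lost.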
